A study of Gallus gallus with 4 samples.

Results

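Whole chick embryos treated with the nitric oxide donor spermine NONOate alone were set against control embryos given DMSO, gene by gene. Each side is 1 RNA sequencing library. The comparison takes every gene with 20 or more reads in either library, which is 12066 of the 13081 genes in the table. Embryos (Gallus gallus) were treated at Hamburger-Hamilton stage 8, when the first somites have formed, and collected on day 6 for total RNA. The control received DMSO, the treated library spermine NONOate at 10 µM. The treatment label of the treated library does not name DMSO. The remaining 2 libraries of the series hold embryos given thalidomide at 40 µg/ml alone, or both agents at these doses, here called the combination. How many embryos went into each library, and their sex, is not stated by the labels. Because each condition is 1 library, the spread between embryos is unknown, no test of the difference was made, and every interval below covers counting error only.

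Spermine NONOate breaks down in solution to nitric oxide and spermine. Nitric oxide binds the haem of soluble guanylate cyclase and raises cyclic GMP, which acts on protein kinase G and on phosphodiesterases, and it can also modify protein thiols. Spermine is a polyamine, a class of small cations whose synthesis and breakdown are under tight enzymatic control. In a whole embryo each transcript is a sum over all tissues. The plasma proteins of the chick embryo come from hepatocytes of the liver and from the endoderm of the yolk sac, kidney tubule genes at this stage come mainly from the mesonephros, and contractile smooth muscle genes from gut and vessel walls.

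The control library held 79359076 reads in genes and the spermine NONOate library 62576258. The thalidomide and combination totals lay between these, at 66889240 and 72309065. The 50 most abundant genes took 17.8% of the control reads, 17.2% of the spermine NONOate reads, and 11.1% and 12.2% in the thalidomide and combination libraries. Levels are read counts divided by TMM-scaled library size (CPM), and are compared between libraries for the same gene, never between genes. A log2 ratio is spermine NONOate over control with 0.5 reads added to each count. A gene was called higher or lower where this ratio reached 2-fold, the higher library had at least 20 reads and the 95% exact conditional-binomial interval of the ratio excluded no change.

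Most genes differed little between the libraries, and those that differed by size were mainly higher with the donor. The median log2 ratio over the 12066 genes was -0.037, with quartiles of -0.23 and 0.19. A ratio above 0 was found in 5425 genes (45.0%), the share to set beside sign counts of the lists below. By the size rule 529 genes were higher (4.38% of genes tested) and 156 lower (1.29%). Of the higher genes 186 reached 4-fold and 56 reached 8-fold. Of the lower genes 25 reached 4-fold and 10 reached 8-fold. The depth was enough for the counting interval to exclude no change in 8588 genes (71.2%), so the 2-fold limit and not the interval set most calls. Among higher genes 183 had under 100 reads in the higher library, and among lower genes 70 did. The higher genes summed to 4512 CPM in control and 15644 with the donor, the lower genes to 2569.6 and 911. The direction of these sums was fixed by the call rule. With thalidomide and in the combination the higher genes summed to 6521 and 9485 CPM, the lower genes to 2707 and 1928. Just inside the limit were CPN1 (log2 1.01) and COL17A1 (-1.01). Just outside were APBB3 (0.999) and VIT (-0.999).

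**Figure D1:**
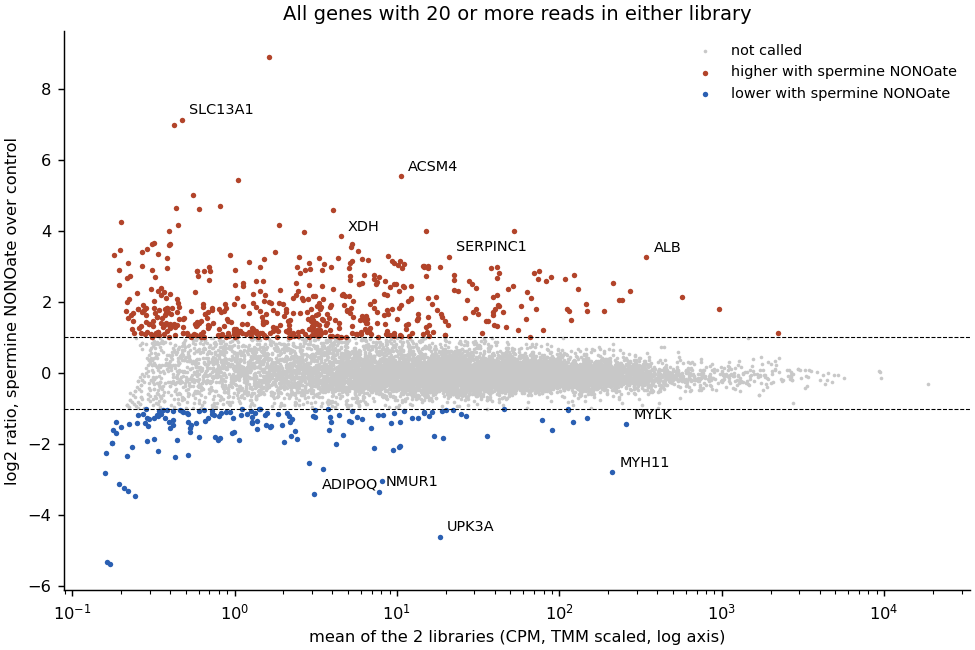
Log2 ratio of spermine NONOate over control (vertical axis) against the mean level of the 2 libraries in CPM (horizontal, log axis) for the genes with 20 or more reads in either library, 1 point per gene. Red points are the 529 genes called higher, blue points the 156 called lower, and dashed lines mark 2-fold. The highest ratios belong to genes with few or no control reads, such as SLC13A1.

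ACSM4, a medium-chain acyl-CoA synthetase, stood at 0.438 CPM in the control library and 20.8 in the spermine NONOate library. Its log2 ratio was 5.55 (interval 5.06 to 6.12). ALB, which encodes serum albumin, stood at 64.6 CPM in the control library and 622 in the spermine NONOate library, a 9.63-fold difference. XDH, the xanthine dehydrogenase that forms uric acid, the main nitrogen waste of birds, had 0.574 CPM against 8.42 (log2 3.86). TMPRSS6, a liver serine protease that acts on iron regulation, had a log2 ratio of 3.29 (3.02 to 3.59). PLA2G12B, a secreted phospholipase family member needed for lipoprotein secretion in mice, had 3.25 (2.87 to 3.67), and CYP4B1, a cytochrome P450, 3.16 (2.90 to 3.43). The 15 highest genes were ranked by the end of the interval closest to 0 among genes with a symbol and 100 or more reads. They also held C12ORF59, SUSD2, A1CF, SLC7A13, TM4SF4, SERPINC1, SLC34A1, SERPINA1 and CL2. Genes without a symbol were not ranked, such as a gene with 0 control and 196 donor reads, whose log2 interval starts at 6.00. In the thalidomide and combination libraries A1CF stood at 5.31 and 12.9 CPM, beside 5.02 with the donor alone and 0.315 in control, so control was the lowest of the 4 libraries. The same held for ACSM4 (2.55 with thalidomide and 14.8 in the combination) and XDH (3.22 with thalidomide and 10.3 in the combination). For ALB it did not, since the thalidomide library (12.9 CPM) was below control. These 4 genes were picked for high ratios of donor over control, so control lying below the donor library was fixed by that choice.

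**Figure D2:**
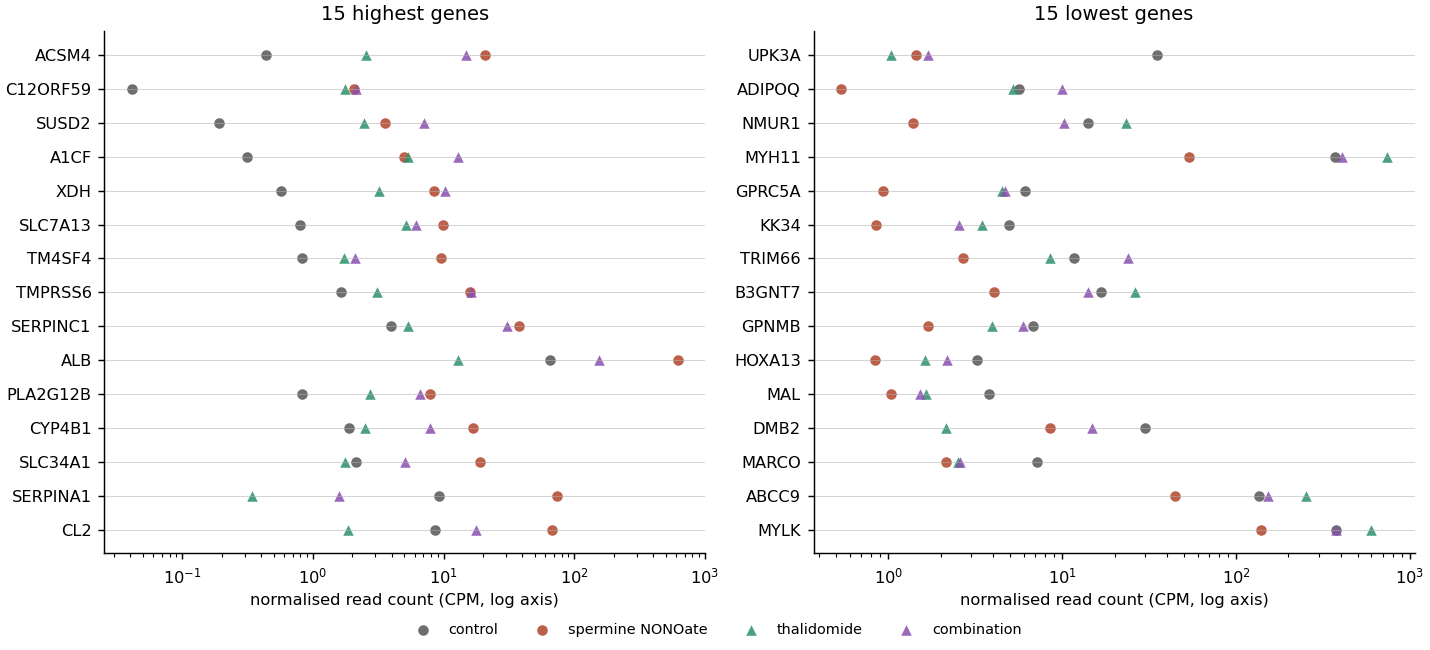
Normalised read count in CPM (horizontal, log axis) in each of the 4 libraries for the 15 highest and 15 lowest genes with a symbol of spermine NONOate against control. Circles are control and spermine NONOate, triangles thalidomide and the combination. For UPK3A the control library stands alone at 35.2 CPM, while for MYH11 the spermine NONOate library stands alone at 53.6 CPM.

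Plasma carriers and inhibitors made by liver and yolk sac were higher in the donor library. Of 24 genes of this list with enough reads, 17 were called higher and none lower, against 4.38% of all genes, with a median log2 ratio of 1.92 against -0.037 over all genes. In a whole-embryo library more cells of a type and more RNA per cell cannot be told apart, here and in every group below, and the share of each organ in these libraries was not measured. APOH, a phospholipid-binding plasma protein, stood at 3.21 CPM in the control library and 25.9 in the spermine NONOate library (8.03-fold). FETUB, a protease inhibitor, stood at 18.3 CPM in the control library and 132 in the spermine NONOate library (7.25-fold), and its level was 2.85 with thalidomide and 27.0 in the combination. HGFAC, the protease that activates hepatocyte growth factor, had a log2 ratio of 2.98 (2.81 to 3.16). TTR and RBP4, the carriers of thyroid hormone and retinol, had smaller ratios of 2.05 and 1.80. AHSG (0.81), IGF-I (0.65), CP, the copper protein ceruloplasmin (-0.023), and LECT2 (-0.12) did not reach the rule. SERPINA1, which encodes alpha-1 antitrypsin, stood at 9.22 CPM in the control library and 73.6 in the spermine NONOate library, and at 0.340 with thalidomide and 1.57 in the combination. Its donor ratio was 7.98-fold without thalidomide and 4.55-fold with it. Summed over the list the level was 570.3 CPM in control, 2424 with the donor, 324 with thalidomide and 938 in the combination.

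Clotting genes formed the list with the highest share of calls. Of 23 genes 20 were higher and none lower, against 4.38% and 1.29% of all genes, with a median of 2.54. SERPINC1, antithrombin, had 287 reads in control and 2277 with the donor (9.66-fold, log2 interval 3.10 to 3.46). F2, prothrombin, stood at 17.6 CPM in the control library and 123 in the spermine NONOate library (6.97-fold). The fibrinogen chains FGA, FGB and FGG had log2 ratios of 2.37, 1.73 and 2.76. PLG, which encodes plasminogen, had 2.65 (2.57 to 2.73), and KNG1, kininogen, 2.82 (2.71 to 2.93). The genes short of the rule were F8 (-0.15), PROS1 (-0.22) and F13A1 (-0.50), of which F8 and F13A1 are known mainly from endothelial and blood cells in mammals. In the complement list 4 of 10 were higher, against 4.38% of all genes. These were the mannose-binding lectin MBL2 (2.52), its protease MASP2 (1.42), C5 (1.35) and CFI (1.29). C1R (-0.13) and C1S (-0.11), proteases of the classical pathway, lay near 0.

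The machinery that loads lipid onto lipoproteins was higher too. MTTP, the lipid transfer protein, stood at 1.44 CPM in the control library and 8.80 in the spermine NONOate library (6.11-fold). With thalidomide MTTP stood at 5.43 CPM and in the combination at 13.7, so control was again the lowest library. Its substrate APOB had 92.4 against 456 CPM (4.94-fold). LIPC, hepatic lipase, had a log2 ratio of 2.46 (2.37 to 2.55). In all 6 of 11 lipoprotein genes were higher and none lower, against 4.38% and 1.29% of all genes. Among endoderm transcription factors 6 of 17 were higher and none lower (median 0.68). The summed level of this list differed little, at 368.3 CPM in control and 374 with the donor. HNF4A, a nuclear receptor of hepatocytes, kidney tubule and gut, stood at 0.875 CPM in the control library and 6.94 in the spermine NONOate library (7.87-fold). HNF4G (2.20), the bile acid receptor gene NR1H4 (2.54) and CEBPB (1.06) were also higher. GATA4 (0.82), HHEX (0.38) and PROX1 (0.21), regulators of the early liver bud that are also used in other organs, did not reach the rule, nor did CEBPA (0.24).

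Enzymes of hepatic amino acid and glucose metabolism were higher in 17 of 26 cases and lower in none (median 1.70). Tyrosine breakdown was represented by TAT (2.31), HPD (1.95), HGD (2.33) and FAH (1.73), which act along one pathway, and each of these 4 was called higher. Histidine breakdown was represented by HAL (2.18), UROC1 (1.19) and FTCD (2.90). In tryptophan breakdown TDO2 (1.67), KMO (2.49), KYNU (1.93) and HAAO (1.78) were higher. GYS2, the liver glycogen synthase, stood at 0.424 CPM in the control library and 2.58 in the spermine NONOate library (6.02-fold), and PCK1, the gluconeogenic carboxykinase, at 3.15 and 14.3 CPM (4.54-fold). Of the urea cycle genes ASS1 reached the rule (1.04, 0.88 to 1.20), while CPS1 (0.066) and OTC (0.26) did not. Among bile acid, steroid and drug enzymes and transporters 10 of 21 were higher and none lower, against 4.38% and 1.29% over all genes. They included CYP7A1, the first enzyme of bile acid synthesis (2.27), BAAT, which conjugates bile acids (1.78), and FMO4 (2.94). The summed level of this list was not higher, at 872.7 CPM in control and 850.9 with the donor, and its lowest ratio was -0.71.

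Some genes of other internal epithelia were also higher. In the kidney list 11 of 23 were higher and none lower, against 4.38% and 1.29% of all genes. The median was 0.94, also with SLC13A1 at its lower bound. The kidney genes together had 338.7 CPM in control, 567.2 with the donor, 487.7 with thalidomide and 573.5 in the combination. Control was thus the lowest of the 4 libraries, below thalidomide without the donor. The receptors that take up filtered protein were each higher: LRP2 at 1.34, CUBN at 1.66 and AMN at 1.95. SLC34A1, the phosphate carrier of the proximal tubule, stood at 2.12 CPM in the control library and 18.8 in the spermine NONOate library (8.86-fold). PAX2, a nephric transcription factor also used in the nervous system, had 1.41 and CALB1, a calcium-binding protein, 2.29. SLC13A1, a renal and intestinal sulfate carrier, had no control read and 57 reads with the donor. The counting interval of its log2 ratio starts at 4.19. With thalidomide SLC13A1 had 116 reads and in the combination 245. WT1 (0.61), LHX1 (0.29), EMX2 (-0.17) and GATA3 (-0.36), transcription factors of nephron or duct, lay inside the 2-fold limits.

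In the gut and yolk sac absorptive list 11 of 20 were higher and 1 lower, against 4.38% and 1.29% of all genes. SLC6A19, the neutral amino acid carrier of brush borders, stood at 2.34 CPM in the control library and 19.7 in the spermine NONOate library (8.41-fold), and GUCY2C, the guanylin receptor, had a log2 ratio of 2.73 (2.42 to 3.06). SLC5A1, the sodium-glucose carrier, had 1.51, and the heavy chain SLC3A1 and light chain SLC7A9 of the cystine carrier had 1.49 and 1.05. CDHR5 and CDHR2, cadherins that link microvilli, had 3.59 and 1.62. VIL1, which encodes villin, an actin bundler of microvilli, was the member called lower (-1.21, -1.61 to -0.84), from 221 against 78 reads, and CDH17, a cadherin of gut epithelium, lay at 0.058. Many carriers of this list are also kidney genes. In the small lung and thyroid list 3 of 5 were higher, against 4.38% of all genes. Among them was LL, a lung lectin gene matched through an older symbol (1.72). NKX2-1, a transcription factor of lung, thyroid and ventral forebrain, had 18 against 133 reads (log2 3.14). TG, thyroglobulin, had -0.50. The summed level of the lung and thyroid list was not higher, at 137.7 CPM in control and 125.4 with the donor.

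Neuronal genes lay above control as a group but mostly short of 2-fold. Of 19 neuronal genes 18 had a log2 ratio above 0, against 45.0% of all genes, and the median was 0.59. Against 4.38% of all genes, 3 of the 19 were called higher. These were SCG2, a granule protein of neuroendocrine cells (1.30), and the vesicular carriers SLC32A1 for GABA and glycine (1.25) and SLC18A3 for acetylcholine (1.18). SNAP25 (0.77), STMN2 (0.74) and SYT1 (0.47) were inside the limit, and DCX, a marker of young neurons, was at -0.28. In the sympathoadrenal list 3 of 11 were higher, among them the catecholamine enzymes DDC (1.601, 1.38 to 1.83) and DBH (1.31), while TH, the first enzyme of that pathway, had 0.42 and GATA2 -0.29. Outside the lists, and picked after their values were seen, the glutamate receptor genes GRIN1 (1.57), GRIK2 (1.25) and GRIA2 (1.13) were higher, as were the ganglionic acetylcholine receptor subunits CHRNA3 (1.48) and CHRNB4 (1.14). The pituitary hormone precursor POMC had 42 against 113 reads (1.70) and TBX19, its transcription factor in mammals, 9 against 31 (2.02). PTH, parathyroid hormone, had 95 against 404 reads (2.37).

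Smooth muscle genes lay below control in the donor library. All 16 members of the list with enough reads had a log2 ratio below 0, 4 were called lower and none higher, against 1.29% lower over all genes, with a median of -0.60. MYH11, the smooth muscle myosin heavy chain, stood at 371 CPM in the control library and 53.6 in the spermine NONOate library, a 6.92-fold difference, and at 741 with thalidomide and 408 in the combination. The spermine NONOate library was thus the low one of the 4. MYLK, the myosin light chain kinase, stood at 377 CPM in the control library and 139 in the spermine NONOate library (2.72-fold) and at 597 with thalidomide and 378 in the combination. ABCC9, a subunit of ATP-sensitive potassium channels in vascular smooth muscle, had a log2 ratio of -1.61 and MYOCD, the coactivator of the contractile programme, -1.56. ACTG2, an actin of enteric smooth muscle, lay just outside the limit at -0.997 (-1.02 to -0.97), and MYL9 at -0.83. The list members PDGFRB (-0.45), RGS5 (-0.52) and CSPG4 (-0.17) and the muscle filament gene DES (-0.16) lay nearer to 0. The list holds smooth muscle and pericyte genes together, and these were not counted apart. Summed over the list the level was 3635 CPM in control and 2177 with the donor.

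Some genes of surface epithelium were lower as well. UPK3A, a uroplakin, was the lowest of the genes with a symbol and 100 or more reads. It stood at 35.2 CPM in the control library and 1.43 in the spermine NONOate library, a 24.4-fold difference, and at 1.03 with thalidomide and 1.70 in the combination. Control was therefore the single high library. UPK1B, another uroplakin, had a log2 ratio of -1.20 (-1.34 to -1.06) and GPRC5A, an orphan receptor of epithelia, -2.69 (-3.13 to -2.30). TP63, the transcription factor of basal epidermis, was called at -1.04, close to the limit. In this list 4 of 9 were lower and 1 higher, SHH (1.07), a morphogen of many tissues that the limb list holds too. Picked after their values were seen, the epidermal adhesion genes COL17A1 (-1.01), FAT2 (-1.26) and EVPL (-1.16) were also lower. In the posterior Hox list 1 of 9 was lower, HOXA13, expressed in the distal limb, hindgut and cloaca (from 235 to 50 reads, log2 -1.94). HOXD12 was at -0.93, HOXD13 at -0.64 and HOXA9 at 0.044. Over all genes 1.29% were called lower and 4.38% higher, so single calls in the posterior Hox and limb lists are not read as a result about them. In the limb list 22 of 29 genes had ratios below 0 and 1 was called lower and 1 higher. The lower call was TBX5 of forelimb and heart (-1.03), which fell short of the limit with total counts (-0.97) and with upper quartile scaling (-0.98), and the higher one SHH, with TBX4 of the hindlimb at -0.88, and PRRX1, a limb mesenchyme factor, at -0.58.

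Some lens and macrophage genes were also lower. In the lens list 15 of 16 ratios were below 0 and 3 were called lower, against 1.29% of all genes. The 3 were CRYBA1 (-1.13), CRYBA2 (-1.05) and FOXE3, a lens transcription factor (-1.69). CRYAA, alpha crystallin, had -0.80. The lens genes together had 4114 CPM in control, 2307 with the donor, 736 with thalidomide and 1623 in the combination. Control was thus the highest of the 4 libraries, and thalidomide without the donor the lowest. MARCO, a macrophage scavenger receptor, stood at 7.21 CPM in the control library and 2.13 in the spermine NONOate library (3.37-fold). The complement genes C1QA, C1QB and C1QC, which macrophages express, had -1.60, -1.24 and -1.47. The macrophage receptor CSF1R (-0.31), the leukocyte antigen PTPRC (-0.41) and SPI1 (-0.27) lay inside the limit. GPNMB, a glycoprotein of macrophages and pigment cells, had -2.00 (-2.33 to -1.70). ADIPOQ, adiponectin, stood at 5.68 CPM in the control library and 0.533 in the spermine NONOate library (10.5-fold), with 5.23 with thalidomide and 10.0 in the combination, while the adipose genes PPARG (0.13), FABP4 (0.12) and PLIN1 (-0.36) were near control. A few genes of acid-base transporting cells, chosen after seeing values and with no list behind them, were lower. FOXI1, the transcription factor of ionocytes and renal intercalated cells, had 53 against 8 reads (-2.37). SLC4A9, an anion exchanger of such cells, had 25 against 0 reads, and the interval of its log2 ratio ends at -2.37. The proton pump subunit ATP6V1G3 had -1.38 and ATP6V0D2 -1.79. NMUR1, a neuromedin U receptor, stood at 14.1 CPM in the control library and 1.38 in the spermine NONOate library (10.1-fold) and at 23.4 with thalidomide and 10.2 in the combination.

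**Figure D3:**
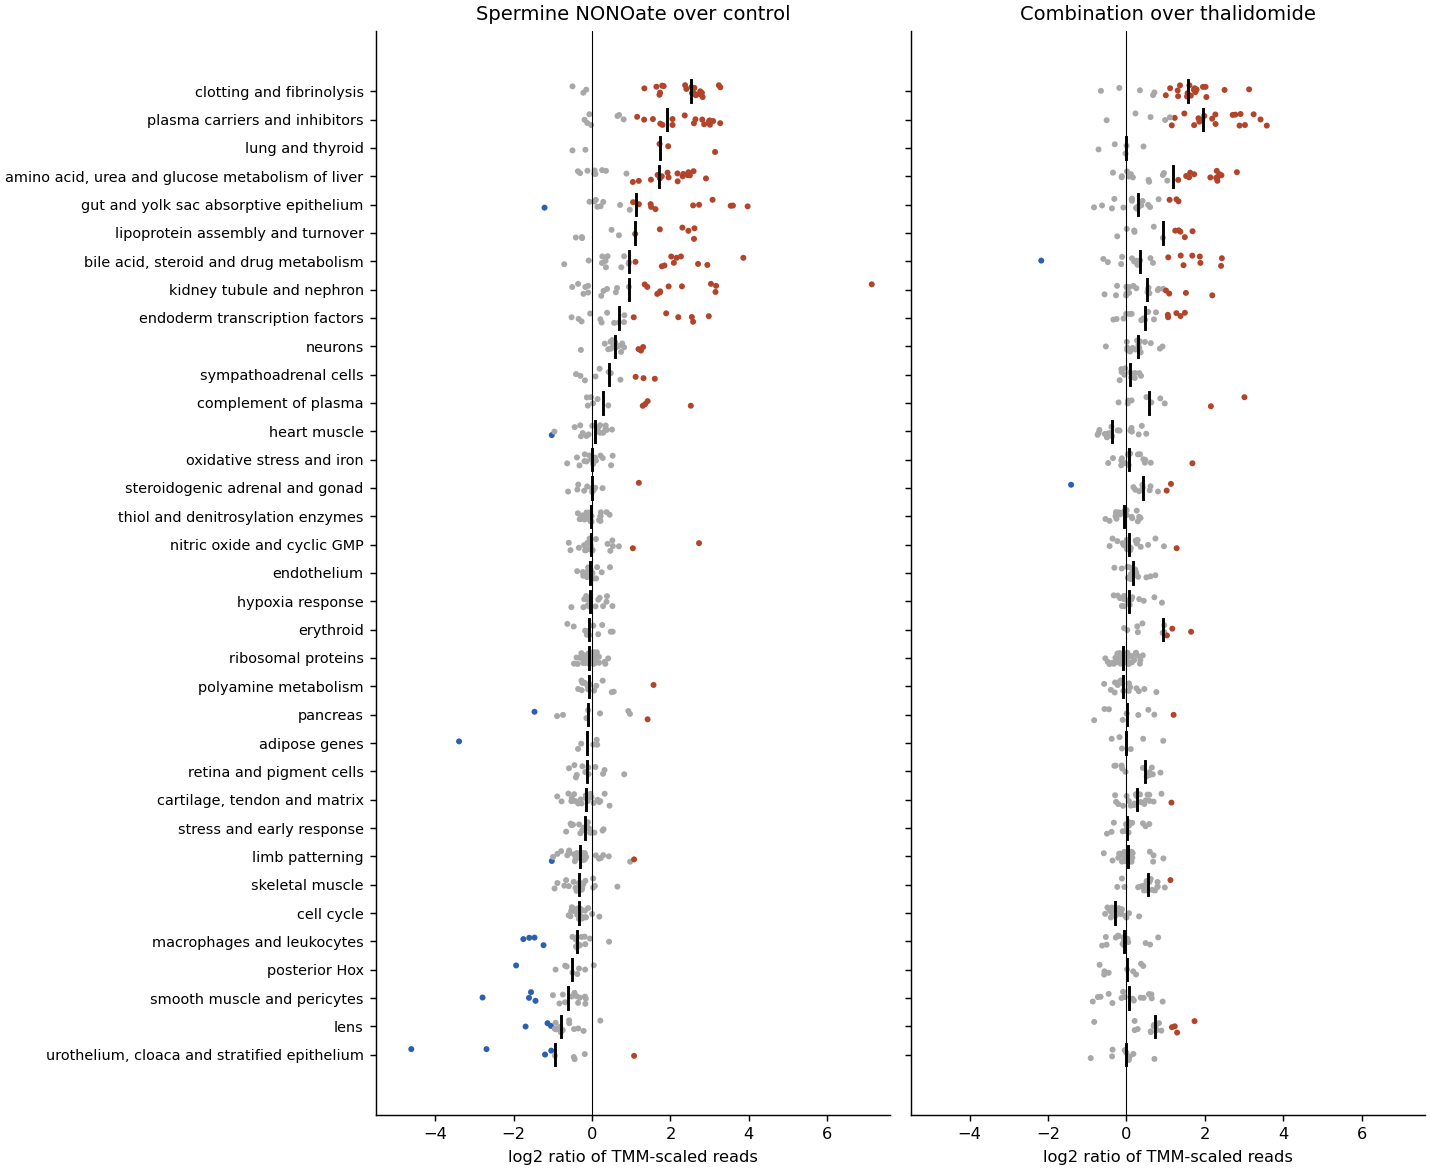
Log2 ratios of the members of the 35 gene lists with 20 or more reads in control or spermine NONOate, 1 point per gene, for spermine NONOate over control (left) and for the combination over thalidomide (right). Red and blue points were called higher and lower in that comparison, and black bars are list medians. Lists are ordered by the left medians, from clotting at 2.54 to urothelium, cloaca and stratified epithelium at -0.95. The SLC13A1 point rests on a control count of 0.

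Most genes that handle nitric oxide lay within 2-fold. Of 21 genes for nitric oxide and cyclic GMP handling 2 were called, both higher, where 5.68% of all genes were called in either direction, with a median of -0.036. Each is held by another list as well: the guanylin receptor GUCY2C and ASS1, which remakes arginine from citrulline. NOS2, the inducible synthase, had 20.1 CPM in control against 28.8 with the donor (log2 0.52, 0.42 to 0.62), and NOS1, the neuronal synthase, at 7.62 and 6.62 CPM (-0.20, -0.39 to -0.014). The subunits of soluble guanylate cyclase differed in sign, GUCY1A3 at 0.53 (0.47 to 0.59) and GUCY1B3 at 0.40 (0.33 to 0.46) above control, and GUCY1A2 at -0.55 (-0.88 to -0.23) below it. Protein kinase G genes PRKG1 (-0.34) and PRKG2 (-0.036) and the cyclic GMP phosphodiesterase PDE5A (0.099) lay within 2-fold, as did PDE3A (-0.59). DDAH1, which degrades an endogenous synthase inhibitor, had 0.69, the arginine carriers SLC7A2 and SLC7A1 0.47 and -0.062, and GCH1, which makes the synthase cofactor, 0.018.

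Most polyamine genes and each thiol gene lay within 2-fold. Of 16 polyamine genes 1 was called, AGMAT, agmatinase (1.57, 1.33 to 1.82), where 5.68% of all genes were called in either direction. SAT1, the acetyltransferase that starts polyamine breakdown, had 0.55 (0.51 to 0.60). ODC1, ornithine decarboxylase, had -0.100, AMD1 -0.35, the spermine oxidase SMOX -0.27 and the antizyme gene OAZ2 -0.24. None of 20 thiol and denitrosylation genes was called, and their log2 ratios ran from -0.36 (GSS, glutathione synthetase) to 0.45 (PRDX1, a peroxiredoxin). ADH5, the S-nitrosoglutathione reductase, was at -0.012 (-0.033 to 0.009). No member was called in the lists of oxidative stress and iron (17 genes, -0.63 to 0.53), hypoxia response (17 genes, -0.53 to 0.52), or stress and early response (16 genes, -0.66 to 0.30). At the share over all genes, the counts of calls in these lists are not read as a result about their members. The embryos were collected days after a treatment at stage 8, and no earlier time was analysed here.

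**Figure D4:**
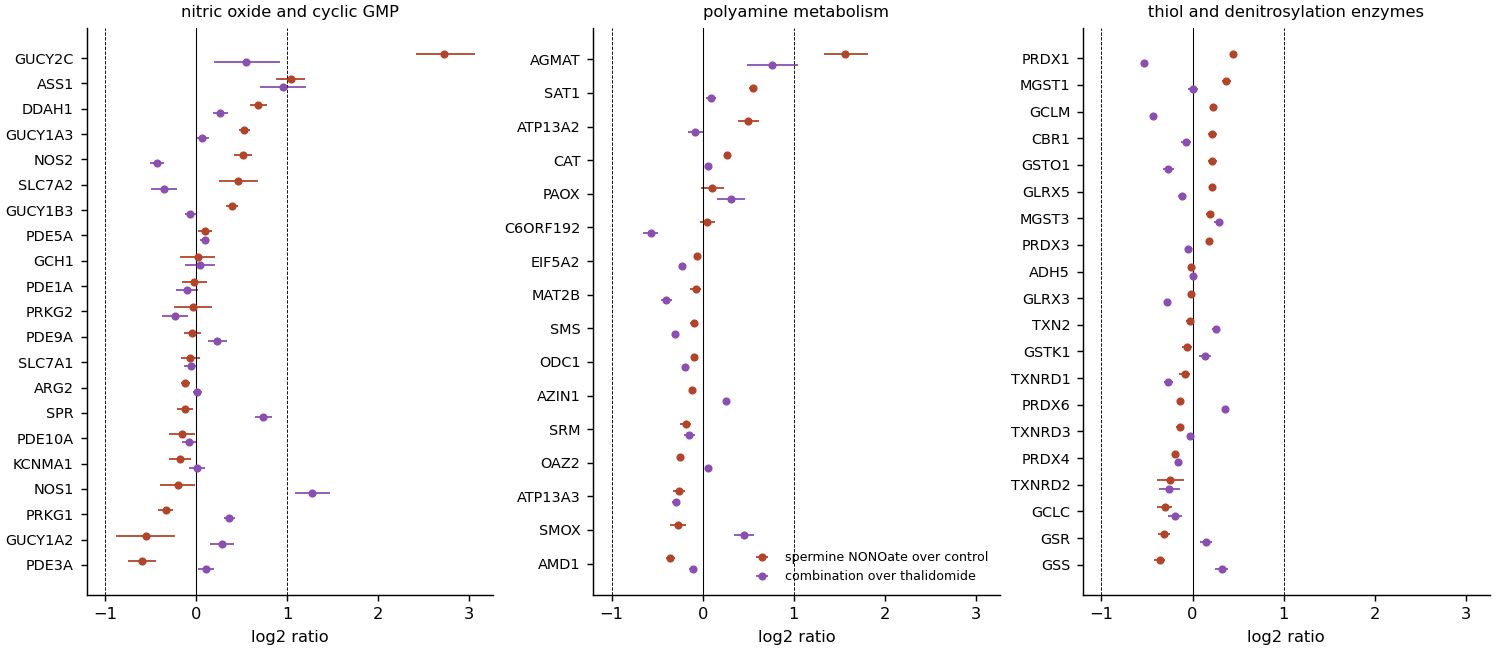
Log2 ratios (horizontal axis) with 95% counting intervals for the members of the nitric oxide and cyclic GMP, polyamine, and thiol and denitrosylation lists. Red is spermine NONOate over control, purple the combination over thalidomide, and dashed lines mark 2-fold. Red points beyond the lines are GUCY2C, ASS1 and AGMAT, and NOS1 is the purple point beyond them.

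Several lists held no called gene, which at the share of 5.68% over all genes is not read as a result about those tissues. None was called among 11 erythroid, 20 skeletal muscle, 23 matrix, 15 endothelial, 12 retina and pigment, 25 cell cycle or 42 ribosomal protein genes. Cell cycle ratios were small but mostly of one sign, with 23 of 25 below 0, where 45.0% of all genes lay above 0. Their median was -0.33, from TPX2, a spindle factor (-0.59), to MKI67 (0.19). For the combination over thalidomide the median of these genes was -0.29, and 21 of the 25 lay below 0 in both comparisons. Collagen VI chains were at the low end of the matrix list (COL6A2 -0.89, COL6A3 -0.78, COL6A1 -0.60). In heart muscle 1 of 18 was lower, TBX5, a call lost with total counts and upper quartile scaling, with NPPA at 0.34. In the pancreas list GCG, glucagon, was higher (302 against 662 reads, 1.42) and RFX6, an islet transcription factor, lower (-1.47), while INS had -0.74. NR5A1, a steroidogenic transcription factor, was the called member of the adrenal and gonad list (1.19).

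The same donor was also given to thalidomide-treated embryos, and that pair of libraries, the combination and thalidomide alone, shares no library with spermine NONOate and control. Most plasma carrier and clotting genes called higher in the first pair were higher again in the second. Over all genes called in the first pair, most of the higher and most of the lower ones did not repeat the call in the second. In the second pair 454 of 12154 genes were higher (3.74%) and 153 lower (1.26%). Of the 499 genes higher in the first pair and with enough reads in the second, 196 (39.3%) were higher again. Over all genes with enough reads in the second pair the higher share was 3.74%. These 196 are 1.64% of the genes with enough reads in both pairs, and 43.2% of the genes higher in the second. Another 19 of the 499 (3.81%) were lower. Counting sign alone, 387 (77.6%) lay above 0, against 5972 of the 11947 genes with enough reads in both pairs. Of those past 4-fold in the first pair, 113 of 176 (64.2%) were higher again, and of those past 8-fold 28 of 52 (53.8%). Of the 139 lower genes 13 (9.35%) were lower again, where 1.26% of all genes were lower in the second pair. These 13 are 0.109% of the genes with enough reads in both pairs, and 8.50% of those lower in the second. Another 9 of the 139 (6.47%) were higher. Of the lower genes past 4-fold 5 of 22 (22.7%) were lower again. By sign 57.6% of the lower genes lay below 0. The pairs differ in their background of thalidomide, and no test of the difference between them was made.

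**Figure D5:**
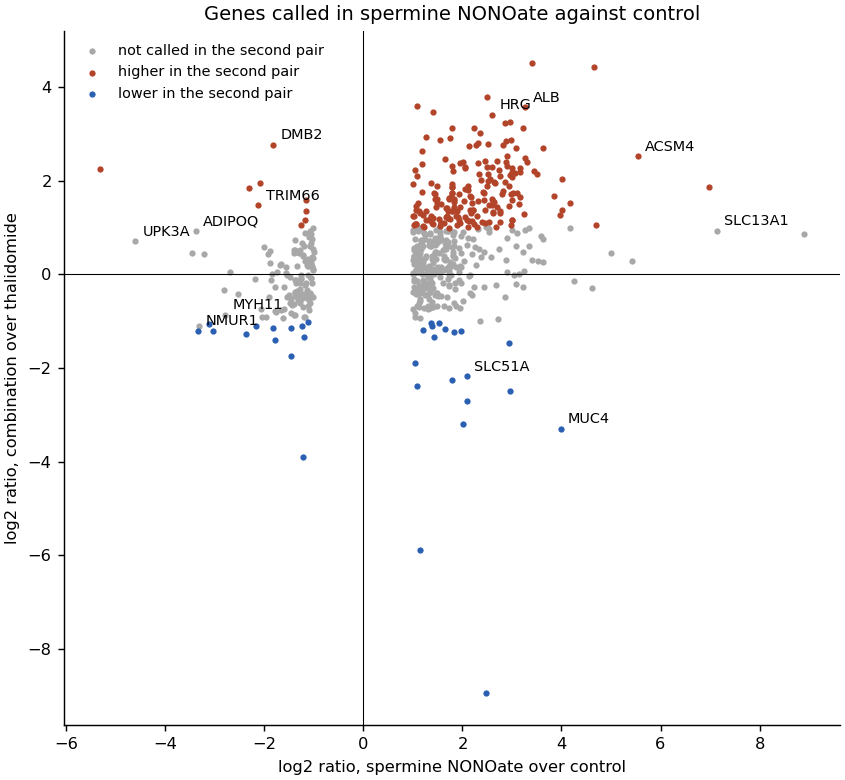
Genes called in spermine NONOate against control, with their log2 ratio there (horizontal axis) and in the combination over thalidomide (vertical axis), 1 point per gene with 20 or more reads in a library of each pair. Red and blue points were called higher and lower in the second pair. To the right of 0, 196 of 499 points are red, and to the left 13 of 139 are blue.

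By group, the genes higher in both pairs were 16 of the 17 plasma carriers and inhibitors and 18 of the 20 clotting genes. For amino acid and glucose enzymes this was 12 of 17, and for lipoprotein genes 4 of 6. For endoderm transcription factors it was 4 of 6, for bile acid, steroid and drug genes 6 of 10, and for complement 1 of 4. For kidney this was 4 of 11 and for the gut and yolk sac list 2 of 11. For the neuronal, sympathoadrenal, and lung and thyroid lists it was none of 3 each, too few to read. By sign, 17 of the 19 neuronal genes lay above 0 in both pairs, with a median of 0.29 in the second. Over all higher genes with enough reads in the second pair the share was 39.3%, and the kidney count lies near it. The 4 smooth muscle, 3 lens and 4 macrophage genes called lower in the first pair are also too few to read. None of them reached the 2-fold limit downward in the second pair, against 9.35% of all lower genes. Several of the smooth muscle and macrophage genes lay below 0 there with intervals that excluded no change. They included MYH11 (-0.86, -0.88 to -0.84), ABCC9 (-0.73, -0.76 to -0.69), C1QB (-0.51, -0.73 to -0.29) and C1QC (-0.53, -0.79 to -0.27). Over whole lists the medians of the second pair were 0.057 for smooth muscle, 0.73 for lens and -0.073 for macrophages and leukocytes. In the lens list 4 of 16 genes were called higher in the second pair and none lower. Among the highest genes over both pairs were ACSM4 (5.55 and 2.53), ALB (3.27 and 3.58), FETUB (2.86 and 3.24), F9, a clotting factor (3.23 and 3.13), ADH1B, an alcohol dehydrogenase (2.70 and 2.43), HRG (2.60 and 3.42), SERPINA4 (3.09 and 2.71) and CL2 (2.97 and 3.25). With a name and 100 or more reads in each pair, the genes lower in both were NMUR1 (-3.34 and -1.20) and CA3, a carbonic anhydrase of muscle (-1.24 and -1.11). LRP2 had 1.34 and -0.002, MYH11 -2.79 and -0.86, and ADIPOQ -3.39 and 0.94. NOS1 was called in the second pair and not in the first (-0.20 and 1.28).

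Some genes called in spermine NONOate against control follow one another in gene order along a chromosome. The order was that of RefSeq on assembly GRCg7b, for 8768 of the 10085 symbols with enough reads. Genes left out of it may lie between its members. In this order 4 runs of 3 successive genes were called in one direction. They were the fibrinogen genes FGB, FGA and FGG on chromosome 4, the clotting factor genes PROZ, F10 and F7 on chromosome 1, and FETUB, HRG and KNG1 on chromosome 9, each higher, and the lower run C1QB, C1QC and C1QA on chromosome 21. By chromosome the share called higher ran from 2.10% on chromosome 21 to 7.64% on chromosome 9, apart from chromosome 16, which carries the chicken major histocompatibility complex. There 8 of 50 genes were higher and 5 lower. The 3 with a symbol were B-G, a butyrophilin-like surface antigen (1.87), the peptide transporter TAP1 (1.04) and DMB2, a class II chaperone chain (-1.83). Reads of near-identical copies in this region can be split between genes, so these values are uncertain.

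By the p-values of the authors' deposited table, 329 of the 529 higher and 58 of the 156 lower genes passed an unadjusted p of 0.05 in the same direction. After Benjamini-Hochberg adjustment over the 12963 p-values of the authors' deposited table, 155 genes were higher and 20 lower at 0.05. Those p-values also come from 1 library a side.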

How the data were processed

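Total RNA was extracted with Trizol, per the labels' protocols. TopHat2 2.0.8, build galGal4 and DESeq are named in the submitters' processing notes, and the file headers give Ensembl release 75 as annotation. No source used here names the counting tool or its strand setting, so overlapping or antisense genes and near-identical copies cannot be told apart. The authors deposited unnormalised read counts for each gene in 4 libraries, beside a fold (ratio) and a p-value that the authors computed per comparison. The table covers 13081 genes of chromosomes 1 to 21, of which 10629 carry a symbol. Other chromosomes were not analysed here. Where genes share a symbol, it stands for the one with the highest summed reads.

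Counts were scaled with TMM (edgeR 4.0.16, R 4.3.3), with factors from genes with 20 or more reads in any library. Ratios have 0.5 reads added to each count, and intervals are exact conditional-binomial (Clopper-Pearson) at 95% (scipy 1.17.1). Without molecular identifiers, reads can repeat one molecule, so intervals cover counting error only. A gene was called at 2-fold with 20 reads in the higher library and an interval that excludes no change, which is a rule of size, not a test. The functions were checked on simulated Poisson counts. Other scalings (total counts, DESeq2 1.42.0 size factors, upper quartile, TMM without the 50 most abundant genes), reads added, read minimum and fold were tried.

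The 35 gene lists hold 908 entries, of which 627 were found, 16 of them by an older symbol in RefSeq, and 604 had enough reads. Lists, comparisons and naming rules were chosen with earlier results of these data known, and support nothing independently. Named genes needed a symbol and 100 reads in the higher library: the 15 highest and 15 lowest, ranked by the end of the interval closest to 0, up to 6 called members per list, the nitric oxide, polyamine and thiol lists, the 10 highest and 10 lowest in both donor pairs, and up to 6 called in opposite directions. Other genes named for context are given by their values. A planned count of promoter motifs was not run, and some genes counted in the lists are not reported here by name.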

Additional observations from a re-analysis of the deposited data

Results flagged for a closer look

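Among named genes with 100 or more reads in each pair, 4 passed the size rule in opposite directions with spermine NONOate against control and with the combination against thalidomide. Each pair is 1 library a side, and the difference between the pairs was not tested. DMB2, a class II chaperone chain of the histocompatibility region, had log2 ratios of -1.83 and 2.78, a difference of 4.60, from 30.0, 8.47, 2.15 and 14.8 CPM in control, spermine NONOate, thalidomide and combination. SLC51A, a subunit of the bile acid and steroid exporter, had 2.09 and -2.17, a difference of -4.26, and its thalidomide library was the high one at 23.6 CPM against 1.33 to 5.65 in the others. TRIM66, a transcriptional regulator, had -2.12 and 1.48, a difference of 3.60, and TMPRSS7, a serine protease, 1.21 and -1.19, a difference of -2.40.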

How the results depend on the processing

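No paired analysis was possible because each group has 1 library. Of the 152 named genes, none that was called changed direction under any of the 9 alternatives, and 37 calls fell short at 4-fold. Uncalled genes near 0, such as PRKG2, can change sign with the scaling. Under another scaling, TBX5 (-0.97) and TP63 (-0.98) fell short of 2-fold with total counts, as did CRYBA2 (-0.99), and the first 2 also under upper quartile scaling. The median over all genes moved by at most 0.057 (log2), with total counts, where the higher share of calls was 80.3% against 77.2%. Of 70 list counts 4 moved by over 1.5 times with total counts and 4 with upper quartile scaling, in the pancreas, limb and heart lists, 3 with a minimum of 100 reads, 22 at 4-fold and 21 at 1.5-fold. With a minimum of 100 reads, 346 genes were higher and 86 lower in spermine NONOate against control, 58 were lower in the combination against thalidomide and 5 lower in both. At 4-fold, 186 were higher and 25 lower in the first pair, 92 and 35 in the second, and 50 and 0 in both. At 1.5-fold, the counts were 1082 and 491, 1133 and 530, and 356 and 43. These follow from the limits themselves. Of the lower genes 70 had under 100 reads in the higher library. With 1 library a side no setting shows the spread between embryos.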

Other observations

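MUC4, which encodes a membrane mucin, was picked after its values were seen and had 3 reads in control, 45 with spermine NONOate, 1626 with thalidomide and 181 in the combination, so the thalidomide library stood far above the other 3. Some transcription factors of the neural tube and midbrain were also picked after their values were seen. PAX7 (-1.09), DBX1 (-1.17) and DMBX1 (-1.35) were lower with spermine NONOate than in control on the log2 scale. Their log2 ratios of combination over thalidomide were 0.60, 0.29 and 0.19.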
